A study of Schizosaccharomyces pombe with 6 samples.

Results

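The 5S rRNA genes of *Schizosaccharomyces pombe* lie scattered over its 3 chromosomes, and the interactions of the AseI fragments that carry them were read from a Genome Conformation Capture (GCC) data set. GCC joins cross-linked restriction fragments by ligation and counts each joined pair by paired-end sequencing. A fragment was taken when the deposited annotation placed an rRNA feature on it and it lay outside the rDNA, the 19 outermost fragments of chromosome III (11 at its left end, up to base 23379, and 8 at its right end, from base 2439432). This gave 39 of the 9464 nuclear fragments. Of these, 30 held a whole 5S gene and 6 held the annotated flank of one. The other 3 held no 5S sequence, although the annotation calls them rRNA: they lay on chromosome III at 23380 to 24680, 24681 to 25395 and 813184 to 814992. The first of these lies next to the rDNA, and the first and the third shared 50 bp stretches with rDNA fragments. Together these held 43813 counts in G1, 56040 in G2 and 45250 in M phase, nearly all of the first fragment's with the rDNA, and are left out of what follows. "Dispersed 5S" therefore means the 36 fragments, 15 on chromosome I, 14 on II and 7 on III.

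The interactions were captured in cultures arrested in G1 phase by cdc10-129 (strain MY291), in G2 phase by cdc25-22 (strain MY284) or in M phase by nuc2-663 (strain MY286), all held at 36°C for 4 h. There were 2 biological replicates for each phase, which the authors pooled in 1 table per phase. No spread between replicates could therefore be had, intervals cover counting error only, and phase, strain and library preparation cannot be told apart. Between non-adjacent nuclear fragments the tables held 2056860 counts in G1, 2196581 in G2 and 2119634 in M phase. Pairs with a dispersed 5S fragment held 20364 of these in G1 (0.99%, 95% Wilson interval 0.977 to 1.0), 16440 in G2 (0.748%, 0.737 to 0.76) and 17446 in M phase (0.823%, 0.811 to 0.835).

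The 5S rRNA is a small RNA of the large ribosomal subunit. It is made by RNA polymerase III, which also makes the tRNAs, while RNA polymerase I makes the other rRNAs from the rDNA repeats in the nucleolus. TFIIIA binds inside the 5S gene and brings TFIIIC and TFIIIB, and in fission yeast a TATA element upstream of the gene takes part as well. In budding yeast a 5S gene sits in each rDNA repeat, whereas in fission yeast the 5S genes stand apart from the rDNA, many of them alone between protein-coding genes and some beside tRNA genes.

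The gene is 119 bp long, and 21 of the 30 members carry the same 119 bp as SPRRNA.10. The other 9 differ at 1 to 3 positions and fall into 8 forms. They are shown because reads of 50 bp can tell some of these copies apart and not others. Positions are counted from 1 at the 5′ end of the gene, sequences are from RefSeq (ASM294v3), and capitals mark the bases that differ from SPRRNA.10.
SPRRNA.10, chrI:149658-149776 (+): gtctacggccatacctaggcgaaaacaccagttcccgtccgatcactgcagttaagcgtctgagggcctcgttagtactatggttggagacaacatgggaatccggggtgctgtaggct
SPRRNA.04, chrIII:1474259-1474377 (-): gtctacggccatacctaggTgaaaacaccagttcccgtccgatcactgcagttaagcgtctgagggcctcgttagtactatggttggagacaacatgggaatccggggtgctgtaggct
SPRRNA.11, chrI:456527-456645 (+): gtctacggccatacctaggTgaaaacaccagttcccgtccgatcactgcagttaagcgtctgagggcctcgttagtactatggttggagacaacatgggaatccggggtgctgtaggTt
SPRRNA.12, chrI:912230-912348 (-): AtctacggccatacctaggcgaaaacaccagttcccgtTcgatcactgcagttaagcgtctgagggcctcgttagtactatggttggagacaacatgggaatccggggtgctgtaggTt
SPRRNA.15, chrI:3547900-3548018 (-): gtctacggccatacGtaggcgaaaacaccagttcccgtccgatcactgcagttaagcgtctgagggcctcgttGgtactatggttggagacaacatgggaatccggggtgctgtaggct
SPRRNA.37, chrII:4161619-4161737 (-): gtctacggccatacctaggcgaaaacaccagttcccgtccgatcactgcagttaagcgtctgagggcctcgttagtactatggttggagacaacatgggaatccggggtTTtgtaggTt
SPRRNA.04 carries C20T, which SPRRNA.05 carries as well and SPRRNA.11 carries together with C118T. SPRRNA.12 differs by G1A, C39T and C118T, SPRRNA.15 by C15G and A74G, and SPRRNA.37 by G110T, C111T and C118T. The remaining members with a form of their own are SPRRNA.18 (T119C), SPRRNA.30 (T12C) and SPRRNA.35 (C40T).

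The AseI site, ATTAAT, lies just upstream of some of these genes. It was found in the 40 bases before 6 of the 30 genes (20%) and in the same window of 396 of 12573 genes annotated by RefSeq (3.15%). The site reads the same on both strands and was the one motif searched. The stretches below hold these 40 bases and the first 10 of the gene, on the strand of the gene, with the site in capitals. The 6 genes with the site come first, and SPRRNA.03, SPRRNA.04 and SPRRNA.10 follow as genes without it.
SPRRNA.19, chrI:4184464-4184513 (-): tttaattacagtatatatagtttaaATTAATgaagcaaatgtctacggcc
SPRRNA.20, chrI:4240959-4241008 (-): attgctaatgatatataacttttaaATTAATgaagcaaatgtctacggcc
SPRRNA.28, chrII:464487-464536 (+): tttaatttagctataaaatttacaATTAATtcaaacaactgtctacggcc
SPRRNA.29, chrII:520263-520312 (+): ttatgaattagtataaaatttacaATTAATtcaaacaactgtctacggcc
SPRRNA.15, chrI:3548009-3548058 (-): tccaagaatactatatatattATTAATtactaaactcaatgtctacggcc
SPRRNA.12, chrI:912339-912388 (-): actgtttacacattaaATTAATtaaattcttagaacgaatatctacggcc
SPRRNA.03, chrIII:1370143-1370192 (-): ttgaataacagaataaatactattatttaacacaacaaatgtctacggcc
SPRRNA.04, chrIII:1474368-1474417 (-): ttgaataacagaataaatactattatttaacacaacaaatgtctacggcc
SPRRNA.10, chrI:149618-149667 (+): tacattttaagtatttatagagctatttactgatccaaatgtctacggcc
In SPRRNA.19 and SPRRNA.20 the site ends 9 bases before the gene, and in SPRRNA.28 and SPRRNA.29 it ends 10 bases before it. These genes so lie at the very end of their fragments. By contrast 5 members (SPRRNA.10, SPRRNA.27, SPRRNA.37, SPRRNA.04 and SPRRNA.05) lie more than 1000 bp from the AseI site on either side.

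The 30 gene fragments held many more counts than the 6 flank fragments. A gene fragment held 174 to 2146 counts in G1 (median 1070.5), 170 to 1882 in G2 (median 796) and 148 to 2452 in M phase (median 876.5). A flank fragment held 12 to 122 counts in G1 (median 37.5), 10 to 176 in G2 (median 30.5) and 7 to 97 in M phase (median 14.5). Only the flank of SPRRNA.19 reached the range of the gene fragments, in G2 phase, where its 176 counts passed the 170 of SPRRNA.15.

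SPRRNA.37, which shares its fragment with a degraded LTR and with sam1, the gene of S-adenosylmethionine synthetase, held the most counts with 2146 in G1, 1667 in G2 and 2452 in M phase. SPRRNA.04, whose fragment reaches from rik1, a gene needed for heterochromatin, to a tRNA-Lys gene, held 1996, 1882 and 1848. SPRRNA.03 held 1630, 1593 and 1491, and SPRRNA.05, beside genes of tRNA-Ser and tRNA-Met, 1827, 1278 and 1557. All 4 were among the highest in every phase. They were followed by SPRRNA.38 with 1521, 1170 and 1316 counts, SPRRNA.18, next to the Hsp90 gene swo1, with 1485, 1314 and 1096, SPRRNA.26 with 1542, 1264 and 1067, and SPRRNA.20 with 1465, 1098 and 1189. G1 phase was the highest of the phases in each of these 8 but SPRRNA.37, which was highest in M phase. The fewest counts were those of the flank of SPRRNA.32 (12, 10 and 7), the flank of SPRRNA.15 (13, 27 and 12), the flank of SPRRNA.12 (34, 31 and 12) and the flank of SPRRNA.13 (41, 40 and 17). By chromosome, the median gene fragment held 964, 724 and 701 counts on I, 787.5, 664 and 657.5 on II and 1542, 1264 and 1258 on III. The median of the 7 on chromosome III was thus the highest in each phase, though SPRRNA.07 there held only 627, 540 and 433. Of those 7, 4 also carry a tRNA gene.

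**Figure D1:**
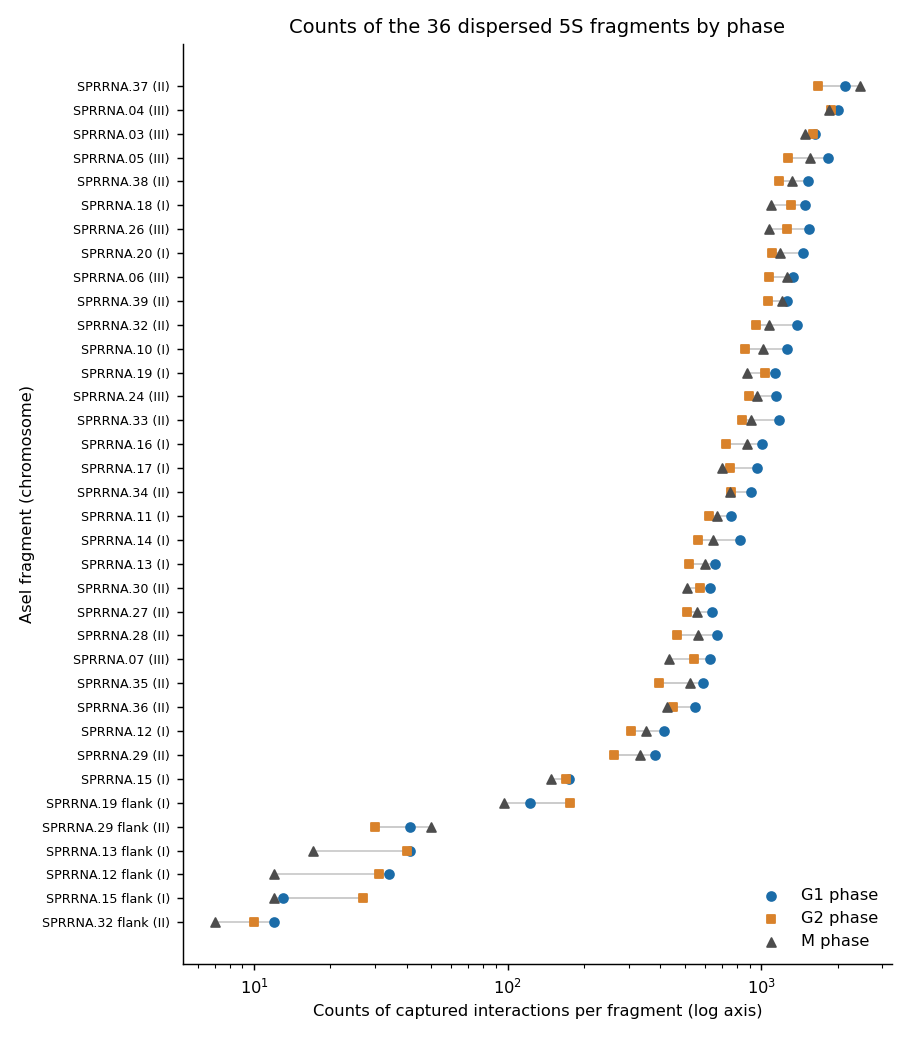
Counts of each dispersed 5S fragment (rows, with its chromosome) on a log axis, with 1 point for each pooled phase table. The 30 gene fragments lie between 148 and 2452 counts, and the 6 flank fragments sit at the bottom, between 7 and 176.

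Most of these counts joined a dispersed 5S fragment to another. Pairs of 5S with 5S held 11980 counts in G1 (58.8% of the 5S counts, 58.2 to 59.5), 9451 in G2 (57.5%, 56.7 to 58.2) and 10137 in M phase (58.1%, 57.4 to 58.8). Pairs of 5S with the rDNA held 445 (2.19%, 1.99 to 2.4), 372 (2.26%, 2.05 to 2.5) and 189 (1.08%, 0.94 to 1.25). Pairs of 5S with all other fragments held the rest, 7939 (39%), 6617 (40.2%) and 7120 (40.8%). The share of 5S with 5S thus differed little between the phases, while the share with the rDNA was lowest in M phase. These classes differ in the sequence their fragments have in common. In every 5S with 5S pair listed, a fragment or its neighbour had a 50 bp stretch in common with the partner, or its partner's neighbour had one with it. No 5S with rDNA pair did. Pairs of 5S with other fragments that met the same rule, neighbours included, held 92.4%, 93.1% and 92.9% of that class's counts. Read ends placed on repeated sequence are part of the tables, and how an end was assigned among identical copies was not tested.

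Nearly every 5S gene fragment was joined to nearly every other. Of the 435 possible pairs of gene fragments, 418 were listed in G1, 413 in G2 and 417 in M phase, with a median of 21, 16 and 17 counts. All 29 partners were listed for 16, 13 and 16 of the 30 gene fragments. Only 9 pairs were listed in no phase, and SPRRNA.12, SPRRNA.15 or SPRRNA.29 was in each of them. SPRRNA.15, with its changes at C15G and A74G, had 22, 22 and 23 partners and a median of 4, 3 and 3 counts per pair. SPRRNA.29, whose gene has the common sequence, had 19, 19 and 21 partners and a median of 6, 4 and 4. The order of the pairs was much the same in the phases, with a Spearman rho over the 435 pairs of 0.90 for G1 with G2, 0.85 for G2 with M and 0.89 for G1 with M. These are descriptions, since pairs share fragments and the tables share the placement of repeated ends.

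**Figure D2:**
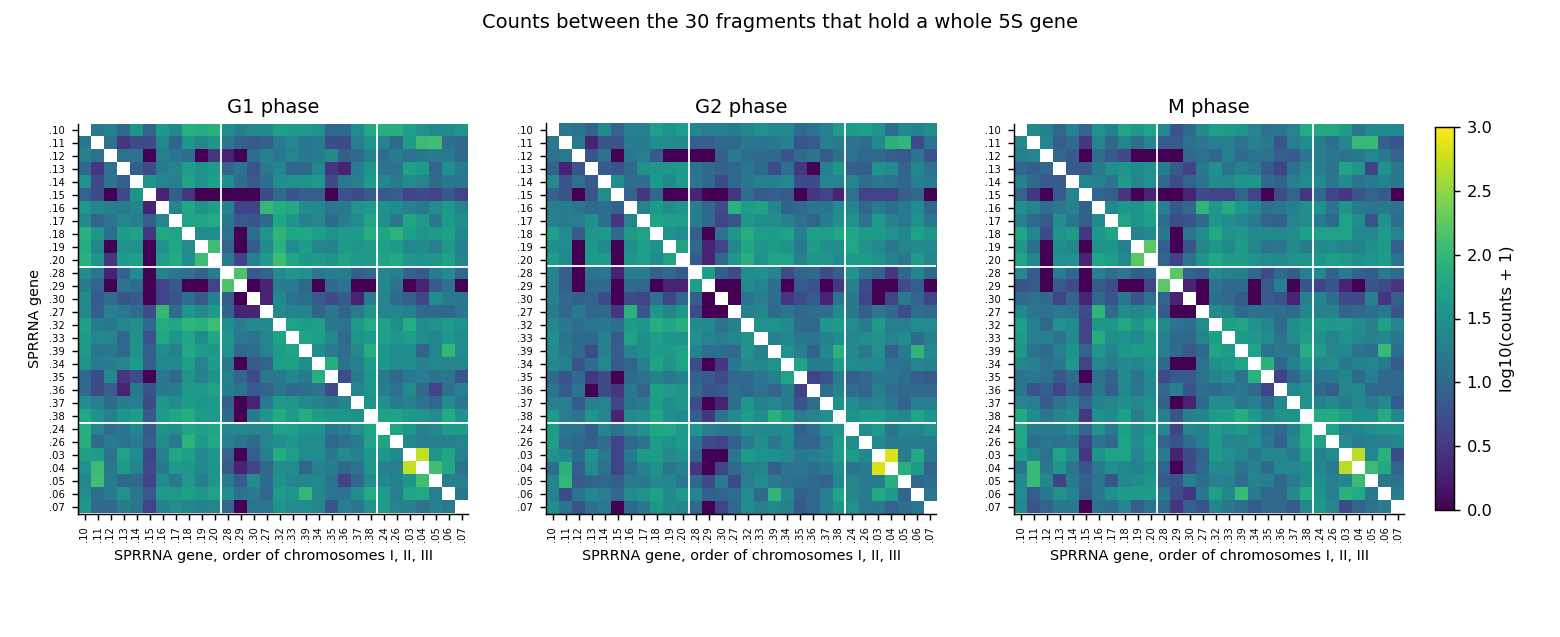
Counts between the 30 gene fragments in the pooled table of each phase, as log10(counts + 1), with genes in the order of chromosomes I, II and III and white lines between chromosomes. The brightest cell is SPRRNA.03 with SPRRNA.04 (530 counts in G1, 690 in G2 and 486 in M phase), and the dark rows are SPRRNA.15 and SPRRNA.29.

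SPRRNA.03 and SPRRNA.04, whose fragments lie 99952 bp apart on chromosome III, had the most counts of all 5S with 5S pairs, with 530 in G1, 690 in G2 and 486 in M phase. The likeness of these copies runs past the gene: their 40 upstream bases shown above are the same, and their fragments had 197 stretches of 50 bp in common, against a median of 70 over all pairs. SPRRNA.28 with SPRRNA.29 followed with 145, 49 and 170 counts, and SPRRNA.19 with SPRRNA.20 with 116, 53 and 171. Both of these pairs were lowest in G2 phase, both lie on 1 chromosome, 52904 and 54483 bp apart, and in both the genes stand at the AseI site. The other pairs among the first 8 were SPRRNA.11 with SPRRNA.05 (118, 95 and 103), SPRRNA.04 with SPRRNA.05 (118, 74 and 110), SPRRNA.11 with SPRRNA.04 (109, 84 and 100), SPRRNA.39 with SPRRNA.06 (95, 92 and 106), which both carry a tRNA-Asn gene as well, and SPRRNA.16 with SPRRNA.27 (98, 83 and 90). Of these 5, only SPRRNA.04 with SPRRNA.05 joins fragments of 1 chromosome.

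Copies that carry C20T had more counts with each other than with most copies of the common form. The 3 copies with C20T lie on chromosomes I and III, and their 3 pairs had 109 to 118 counts in G1, 74 to 95 in G2 and 100 to 110 in M phase. The 63 pairs of a C20T copy with a copy of the common form had a median of 18, 14 and 16 counts, and the 210 pairs within the common form 28, 22 and 22. Among the 63, SPRRNA.03 with SPRRNA.04 was again the highest. Copies that carry C118T did not stand out in this way. SPRRNA.11 with SPRRNA.12 had 12, 16 and 23 counts, SPRRNA.11 with SPRRNA.37 had 18, 19 and 18, and SPRRNA.12 with SPRRNA.37 had 10, 6 and 6. Over all 435 pairs, the count of a pair followed the number of 50 bp stretches in common with a Spearman rho of 0.54 in G1, 0.53 in G2 and 0.53 in M phase, against 0.12, 0.11 and 0.17 for the summed length of the fragments. Pairs with 1 to 20 stretches in common had a median of 4, 4 and 3.5 counts, those with 21 to 50 had 15, 11 and 12, those with 51 to 70 had 23, 16 and 19, and those with 71 to 100 had 29.5, 24.5 and 24. The 2 pairs with none were not listed in any phase. Both of these, and nearly all pairs with 1 to 20 stretches, hold SPRRNA.15, so the low end of this order rests mainly on 1 fragment. The pairs with 21 to 50 stretches mostly hold SPRRNA.04, SPRRNA.05, SPRRNA.11, SPRRNA.12 or SPRRNA.35. The 5 genes more than 1000 bp from the AseI site on either side were set beside the other gene fragments. These 5 held 559 to 1316 counts with other 5S gene fragments in G1, 445 to 1227 in G2 and 483 to 1207 in M phase. The remaining gene fragments ran from 141, 143 and 126 counts (SPRRNA.15) to 1388, 1377 and 1260 (SPRRNA.03).

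**Figure D3:**
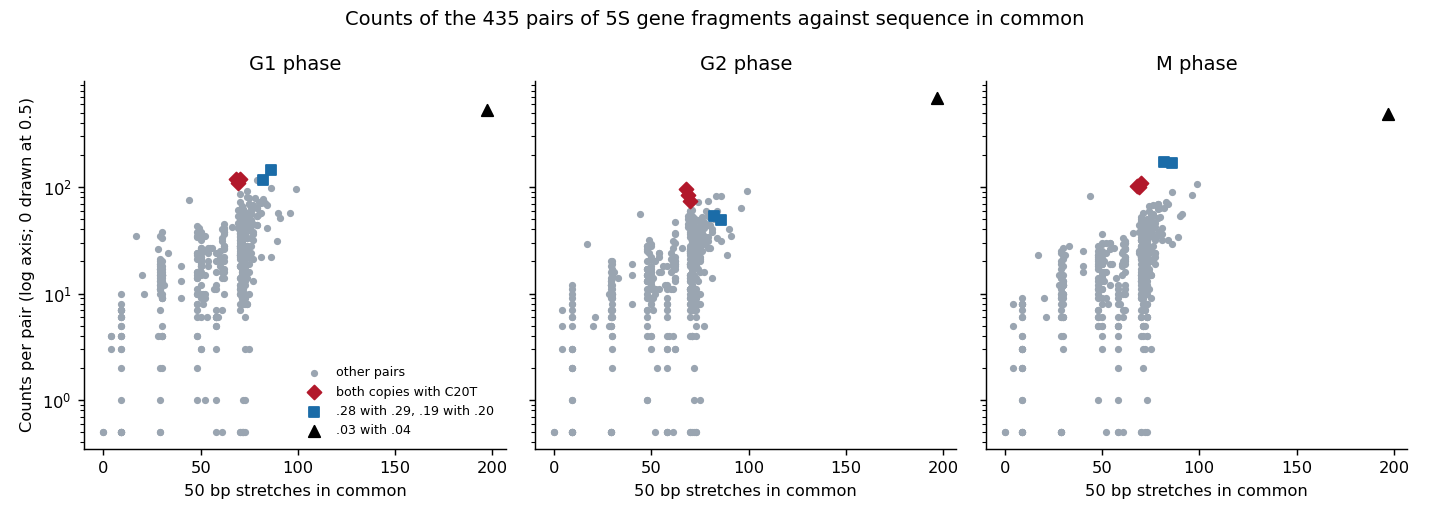
Counts of each of the 435 pairs of 5S gene fragments in the pooled table of each phase (log axis, with 0 drawn at 0.5) against the number of 50 bp stretches the fragments have in common. Diamonds are the 3 pairs of copies that both carry C20T, squares SPRRNA.28 with SPRRNA.29 and SPRRNA.19 with SPRRNA.20, which drop to 49 and 53 counts in G2 phase, and the triangle SPRRNA.03 with SPRRNA.04.

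Chromosome made little difference to the number of counts per pair. Pairs on different chromosomes, 293 of the 435 possible (67.4%), held 63.7%, 62.4% and 61.7% of the counts between gene fragments in G1, G2 and M phase. Their median was 21, 15 and 17 counts, against 20, 16.5 and 19 for the 142 pairs on the same chromosome. The mean of the 21 pairs within chromosome III stood out at 58.0, 56.7 and 53.6 counts, but without SPRRNA.03 with SPRRNA.04 it was 34.5, 25 and 32, beside 27.4, 21.2 and 23.3 within chromosome I and 23.8, 17.1 and 21.6 within chromosome II. Between chromosomes the means were 24.6, 19.2 and 19.2 for I with II, 30.5, 22.8 and 25.3 for I with III and 23.2, 17.6 and 20.1 for II with III.

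Closeness on the chromosome went with more counts in some pairs and not in others. The 11 pairs less than 110 kb apart had a median of 52, 34 and 50 counts, and the 131 pairs farther apart on 1 chromosome 19, 16 and 19. Besides the pairs above, SPRRNA.34 with SPRRNA.35 (60573 bp apart) had 76, 56 and 83 counts although its fragments had only 44 stretches in common, and SPRRNA.17 with SPRRNA.18 (57620 bp apart) had 56, 52 and 56. The fragments of SPRRNA.05 and SPRRNA.06, the closest of all at 4056 bp, had only 18, 9 and 15 counts. SPRRNA.29 with SPRRNA.30, 47000 bp apart, had 0, 0 and 1. The bound of 110 kb was set with these values in view.

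The 6 flank fragments, and the fragments next to a 5S gene fragment in general, were looked at because their own end of a pair lies in sequence not shared with the 5S genes, while the partner's end still lies in a 5S gene fragment. None of the 57 fragments adjacent to a gene fragment had a 50 bp stretch in common with any 5S gene fragment. Where the 5S gene lay less than 250 bp from the AseI site that separates it from the neighbour, 14, 14 and 15 of 16 neighbours were joined to other 5S gene fragments in G1, G2 and M phase, to a median of 8.5, 9 and 6.5 of them. These 16 held 445, 516 and 307 counts with other 5S gene fragments. The 13 neighbours at 250 to under 500 bp from the gene held 1, 0 and 0 counts, and the 28 neighbours 500 bp or more from it held 2, 0 and 8. Beyond 250 bp no neighbour was joined to more than 1 other 5S gene fragment in G1, 0 in G2 and 4 in M phase, against up to 18, 16 and 15 within it. Fragments 2 AseI sites away held 8, 14 and 10 counts over 57 fragments, and those 5 sites away 0, 0 and 4 over 53. The bounds of 250 and 500 bp were set with these values in view.

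The neighbour of SPRRNA.36 reached the most partners, with 18, 16 and 15 other 5S gene fragments and 56, 46 and 43 counts, and the AseI site there is 30 bp from the gene. The neighbour of SPRRNA.20, 11 bp from the gene, held 93, 108 and 54 counts with 11 partners in every phase. The neighbour of SPRRNA.14 held 40, 50 and 10 counts with 16, 14 and 7 partners. M phase was the lowest of the phases in all 3. Among the flank members, that of SPRRNA.19, which carries the kinetochore gene mal2, was joined to SPRRNA.20 by 25, 50 and 26 counts and to SPRRNA.18 by 13, 18 and 4. This was highest in G2 phase, in which SPRRNA.19 with SPRRNA.20 had its fewest counts. The flank of SPRRNA.13 was joined to SPRRNA.06 on another chromosome by 9, 6 and 1 counts. No flank fragment was joined to another flank fragment.

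**Figure D4:**
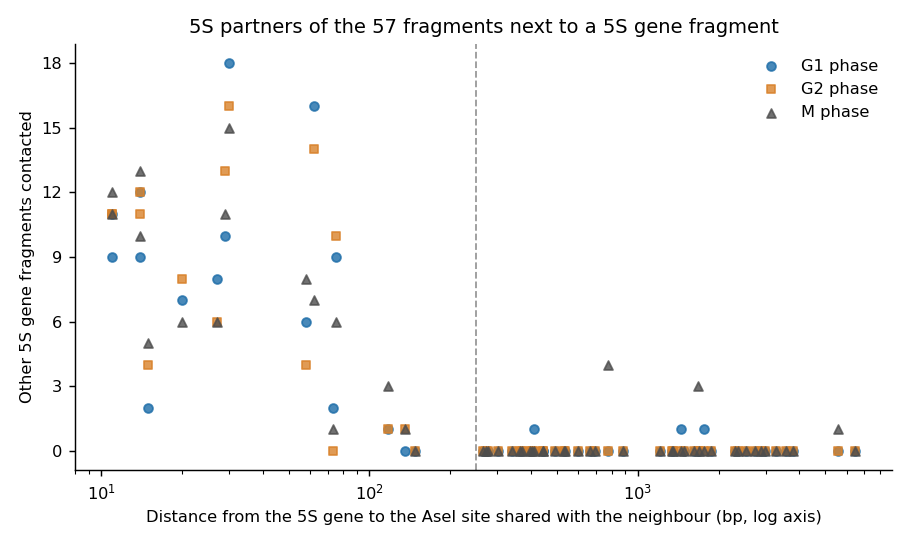
Number of other 5S gene fragments joined to each of the 57 fragments next to a 5S gene fragment, by phase, against the distance from the 5S gene to the AseI site between them (log axis; the dashed line marks 250 bp). To the left of the line up to 18 partners were seen, and to the right of it at most 4.

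A further 4 fragments hold a whole 5S copy that the deposited annotation does not call rRNA, and they behaved like the members. These carry SPRRNA.53 on chromosome I, SPRRNA.31 and SPRRNA.40 on II and SPRRNA.55, in a fragment with the autophagy gene atg1, on III. SPRRNA.40 was joined to 29, 28 and 29 of the 30 gene fragments by 1048, 797 and 784 counts, and SPRRNA.55 to 30, 29 and 29 of them by 1043, 876 and 865. SPRRNA.31 had 459, 312 and 400 counts and SPRRNA.53, with C68T, 365, 238 and 317. All 4 lie within the range of the annotated genes. They account for 2947, 2259 and 2390 counts of the class of other partners, 14.5%, 13.7% and 13.7% of all 5S counts. With them among the members, 5S with 5S pairs held 72.6%, 70.5% and 71.4% of the 5S counts. By contrast SPRRNA.54 and SPRRNA.41, annotated by RefSeq and lacking the whole gene, had 7, 1 and 2 and 2, 3 and 7 counts with the gene fragments.

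Interactions of the 36 fragments with the rDNA were a small share of their counts and followed the length of the fragment. The 36 fragments together span 80.1 kb and had 5.55 counts per kb with the rDNA in G1 (95% exact Poisson interval 5.05 to 6.09), 4.64 in G2 (4.18 to 5.14) and 2.36 in M phase (2.03 to 2.72). The 9403 other fragments with no 50 bp stretch in common with the rDNA had 5.92 counts per kb in G1 (5.88 to 5.96), 4.52 in G2 (4.48 to 4.56) and 2.64 in M phase (2.61 to 2.67). The intervals of the 5S fragments hold or overlap those of the other fragments in each phase. The 5S counts with the rDNA in M phase were 0.425 times those in G1 phase, and those of the other fragments 0.446 times. In both sets M phase was thus the lowest and G1 phase the highest. Over the 36 fragments, counts with the rDNA followed fragment length with a Spearman rho of 0.91 in G1, 0.90 in G2 and 0.89 in M phase, whereas over the 30 gene fragments the counts with other 5S genes did so at 0.25, 0.24 and 0.28.

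At least 1 contact with the rDNA was listed for 34 of the 36 fragments in each phase. The 3 rDNA fragments longer than 8 kb, which make up 68.4% of the rDNA length in the tables, took 67.2%, 77.4% and 73.5% of these counts. The left end of chromosome III took 299, 248 and 137 counts and the right end 146, 124 and 52. By chromosome of the 5S fragment there were 6.1, 5.32 and 2.18 counts per kb on I, 4.92, 3.84 and 2.31 on II and 5.91, 5.12 and 2.69 on III. The 5S fragments on chromosome III, which share it with the rDNA, were therefore not set apart from those on I. The largest pairs were SPRRNA.04 with the rDNA fragment from base 1640 (15, 10 and 4 counts), SPRRNA.05 with the one from base 12510 (13, 10 and 5), the flank of SPRRNA.19 with the same fragment (9, 10 and 3), SPRRNA.04 with it (7, 11 and 4) and SPRRNA.04 with the one from base 2443227 (13, 6 and 3). Each of these joins a long 5S fragment to 1 of the 3 long rDNA fragments, and each was lowest in M phase.

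**Figure D5:**
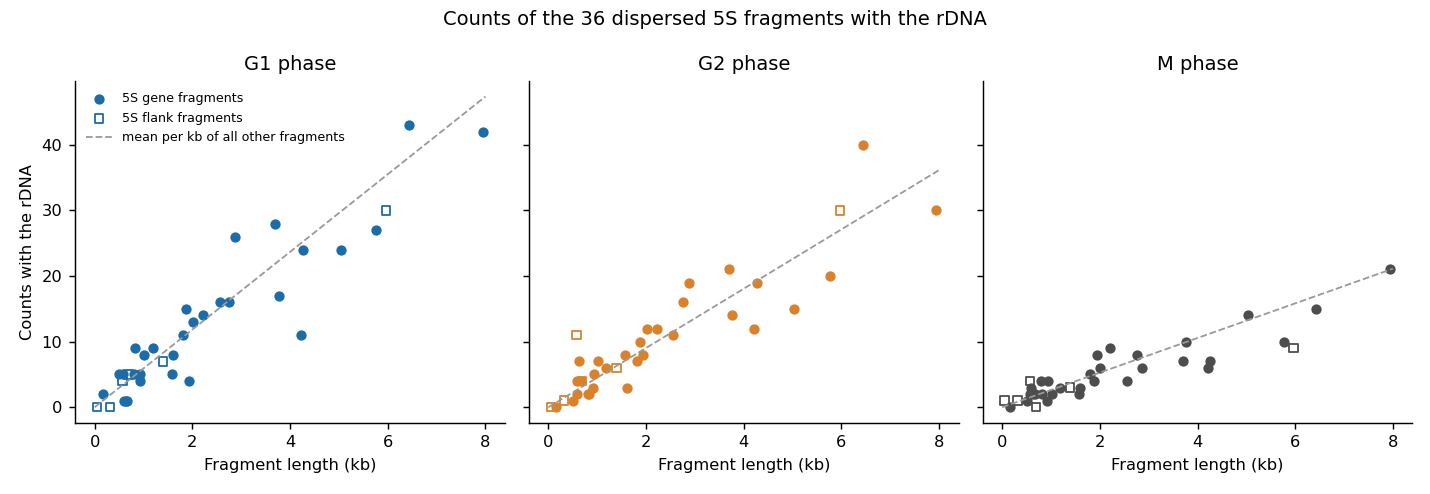
Counts of each of the 36 dispersed 5S fragments with the rDNA against fragment length in kb, in the pooled table of each phase. The dashed line is the mean per kb of all other fragments without rDNA sequence (5.92 counts per kb in G1, 4.52 in G2 and 2.64 in M phase), and the 5S fragments scatter around it.

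Apart from the 4 unannotated 5S copies, the other partners with many counts were tRNA genes and LTRs. They were joined to the 5S fragments that carry such an element themselves. The 7 members with a tRNA gene held 1894, 1635 and 1607 counts with the 98 fragments of the tRNA class, and SPRRNA.37, the 1 member with an LTR, held 1347, 1030 and 1828 with the 251 fragments of the LTR class. The 28 members with neither include the 6 flank fragments. They held 46, 63 and 29 counts with tRNA fragments and 34, 27 and 32 with LTR fragments. Of those with tRNA fragments, 43, 60 and 26 counts lay in pairs with sequence in common, directly or through a neighbouring fragment. Counts with fragments around the centromeres numbered 947, 964 and 718, and 94.6%, 93.5% and 91.2% of these were with fragments that carry a tRNA gene. Subtelomeric fragments had 99, 60 and 62 counts, ribosomal protein genes 15, 16 and 13 over 91 fragments, and the other RNA polymerase III gene fragment in the tables was listed at 0 in every phase.

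The single pairs of this kind with the most counts joined SPRRNA.37 and SPRRNA.05 to such fragments. SPRRNA.37 with a fragment with a degraded LTR on chromosome II, 2090027 to 2092338, had 539, 383 and 806 counts, and the fragments had an unbroken run of 169 bp in common. With LTR fragments at chromosome III, 953727 to 955313, it had 262, 200 and 355, at chromosome III, 108374 to 109396, 213, 197 and 274, and at chromosome I, 4933378 to 4934014, 155, 141 and 200. In all 4 of these LTR pairs M phase was the highest and G2 phase the lowest. SPRRNA.05 had 394, 295 and 397 counts with a fragment with genes of tRNA-Ser and tRNA-Met at chromosome I, 4258570 to 4259714, and 428, 264 and 296 with another such fragment at chromosome I, 1096345 to 1096741. The run of 135 bp that SPRRNA.05 has in common with this last fragment covers tRNA gene sequence and none of its 5S gene. It is shown to make that plain.
SPRRNA.05 fragment, chrIII:1689764-1689898 (+): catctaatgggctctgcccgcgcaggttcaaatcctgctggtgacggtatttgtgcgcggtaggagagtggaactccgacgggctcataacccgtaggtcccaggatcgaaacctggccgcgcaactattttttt
SPRRNA.04 with a tRNA-Lys fragment on chromosome I (99, 102 and 138 counts) and SPRRNA.03 with SPRRNA.55 (97, 91 and 103) complete the first 8.

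Pairs with a stretch in common only through a neighbouring fragment are not counted here, such as SPRRNA.34 with a tRNA-His fragment (2, 12 and 0 counts). Where a 5S fragment and its partner had no 50 bp stretch in common, directly or through a neighbour, counts were low. There were 551, 394 and 468 such pairs with other fragments in G1, G2 and M phase, with 607, 457 and 506 counts, and 94.0%, 90.1% and 95.9% of these pairs had a single count. The largest count was 7 in each phase. They were spread over the genome, with 32.5%, 32.5% and 37.2% of the pairs on the same chromosome and 3, 3 and 4 pairs less than 10 kb apart. SPRRNA.37 with LTR fragments on chromosome I had the most, 4, 1 and 7 counts with the one at 3188317 to 3194147 and 5, 2 and 4 with the one at 3321099 to 3322362, and these have runs of 26 and 22 bp in common with it. SPRRNA.26 with a tRNA-Asp fragment (3, 7 and 0), SPRRNA.04 with a tRNA-Lys fragment (3, 2 and 4), which has a run of 49 bp in common, and the flank of SPRRNA.19 with a fragment on chromosome II (1, 4 and 4) followed. The tRNA-Asp fragment lies 2 AseI sites from the gene fragment of SPRRNA.36.

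The cut-off of the study is used here, and interactions seen 3 times or more are termed significant. The study applied it to uniquely positioned fragments unless it stated otherwise, whereas repeated sequence is included here. The numbers below are therefore not those of the study's significant interactions. For G1 phase these were 669 of 1461 listed 5S pairs (45.8%), against 17.9% of all pairs of the table, for G2 671 of 1258 (53.3%), against 19.3%, and for M 616 of 1297 (47.5%), against 16.2%. The excess lay in pairs that have a 50 bp stretch in common, directly or through a neighbouring fragment. All listed pairs of a gene with a flank fragment are among them, and 19, 20 and 16 of those were significant. The flank fragments themselves had no such stretch in common with a 5S gene fragment. Among pairs with no stretch in common in either way, 57 of 746 5S pairs were significant in G1 (7.64%), against 11.4% of all such pairs. In G2 it was 61 of 547 (11.2%), against 11.8%, and in M phase 23 of 581 (3.96%), against 6.37%. Most of these were with the rDNA: 45, 46 and 14 interactions, which is 23.1%, 30.1% and 12.4% of the 5S pairs with the rDNA, beside 20.6%, 20% and 12.1% for the other fragments without rDNA sequence.

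Significant 5S interactions were interchromosomal about as often as all significant interactions in G1 and G2 phase, and their share lay above that of all in M phase. The share was 69.5% in G1 (465 of 669), 69.2% in G2 (464 of 671) and 67.9% in M phase (418 of 616), beside 69.5%, 67.1% and 62.6% of all significant interactions. The differences were -0.356 percentage points for G2 minus G1, -1.29 for M minus G2 and -1.65 for M minus G1. Fisher's exact test, two-sided over interactions, gave a Benjamini-Hochberg adjusted p of 0.906 for each of the 3 comparisons. It cannot decide whether phases differ, since most of the interactions are the same pairs in each phase and each phase is 1 pooled table. For 5S with 5S the share was 68.8%, 67.6% and 68.5%, beside 66.2% of the possible pairs.

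Most significant 5S interactions were shared by the phases. Of the 750 found in at least 1 phase, 563 (75.1%, 71.8 to 78.0) were significant in all 3, against 37.7% of all interactions. Only 36 (4.8%) were significant in G1 phase alone, against 20.8%, 50 (6.67%) in G2 phase alone, against 16.7%, and 21 (2.8%) in M phase alone, against 4.56%. The sharing differed by partner. It was 402 of 443 (90.7%) for 5S with 5S, 151 of 245 (61.6%) for 5S with other fragments and 10 of 62 (16.1%) for 5S with the rDNA. Of these 62, 13, 15 and 1 were found in G1, G2 or M phase alone. The share of other fragments' rDNA interactions significant in all 3 phases is not given, so the low value cannot be called particular to 5S. The largest 5S interaction of 1 phase only was SPRRNA.37 with an LTR fragment on chromosome I in G1 phase (7, 1 and 0 counts, phases in the same order), SPRRNA.34 with a tRNA-His fragment next to SPRRNA.28 in G2 phase (2, 12 and 0) and SPRRNA.11 with SPRRNA.13 in M phase (2, 1 and 7).

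Pairs with at least 30 counts over the phases were compared as counts scaled to each table's network total (CPM). Of 328 such pairs of gene fragments, 53 (16.2%) were at least 2-fold lower in G2 than in G1 phase and 0 were 2-fold higher, against 11.3% and 8.83% of all 5083 such pairs. In M against G2 phase 17 (5.18%) were 2-fold lower and 27 (8.23%) higher, against 23.3% and 21.2%. In M against G1 phase 35 (10.7%) were lower and 4 (1.22%) higher, against 13.5% and 6.02%. The median log2 ratio was -0.49 for G2 over G1 (all pairs -0.09), 0.21 for M over G2 (0.05) and -0.30 for M over G1 (-0.04). Most pairs between 5S genes thus differed by less than 2-fold in each of the 3 comparisons. Among those past it, SPRRNA.28 with SPRRNA.29 had 70.5 CPM in G1, 22.3 in G2 and 80.2 in M phase, and SPRRNA.19 with SPRRNA.20 was low in G2 phase in the same way. No test between phases was made on these counts, since each phase is 1 pooled table.

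Set beside the most like classes, 5S gene fragments were joined to each other more completely. Of their possible pairs 93.6%, 92% and 93.3% were significant in G1, G2 and M phase. For 129 fragments with a tRNA gene it was 3.76%, 3.73% and 3.6% of 8250 possible pairs, and for 262 fragments with an LTR 10.2%, 9.11% and 10.4% of 34135. These classes also differ in sequence in common, which 99.5% of the 5S pairs, 4.25% of the tRNA pairs and 14.7% of the LTR pairs have. Among pairs that do, 94.0%, 92.4% and 93.8% were significant for 5S, 83.5%, 84.0% and 82.9% for tRNA genes and 64.2%, 59.3% and 66.5% for LTRs. Among pairs that do not, at most 0.215% of tRNA pairs and 0.886% of LTR pairs were significant in any phase.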

How the data were processed

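GCC libraries of 6 cultures, 2 biological replicates in each of 3 phases, were used. The deposited values are raw counts, the read pairs found to join 2 given AseI fragments. The authors placed 50 bp paired ends with the Topography suite on ASM294v2, without mismatches and with repeated sequence included, and pooled both replicates of a phase. A pair listed in either direction entered as 1 pair, and pairs of adjacent, mitochondrial or plasmid fragments were set aside. The number of unused columns of per-sample values was 0.

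Fragments were matched to the RefSeq genome (ASM294v3) to read their sequence. Fragment positions are those of the tables, and gene positions those of RefSeq, which differ by 6149 or 6150 bp on the right part of chromosome I. Wilson and exact Poisson intervals at the 95% level and Fisher's exact tests were made with scipy 1.17.1. The rule for 2-fold lower counts and the Wilson interval were tested on simulated data beforehand, and the Poisson interval was not. A count of 0 allows up to 3 counts. Molecules copied in amplification add to the counts.

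Named were the 8 members with the most and the 4 with the fewest counts, and the pairs with the most counts of each class. Partner classes came from the deposited annotation, or from position for fragments within 60 kb of a centromere's middle or 100 kb of an end of chromosome I or II. The members, lists and bounds were chosen with earlier results of these data known. The 36 fragments take the place of the 39 the member rule gave. Alternatives to the cut-off, the members, the rDNA limits and the pairs kept were run.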

Additional observations from a re-analysis of the deposited data

Results flagged for a closer look

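Joins to mitochondrial DNA, which lies outside the nucleus, stand outside the nuclear network and entered no comparison above. Dispersed 5S fragments had 19 of these counts in G1, 11 in G2 and 27 in M phase, and 0 with the control plasmids in each phase, where a count of 0 allows up to 3. Per kb of fragment this was 0.237 counts in G1 (95% exact Poisson interval 0.143 to 0.37), 0.137 in G2 (0.0685 to 0.246) and 0.337 in M phase (0.222 to 0.49). The 9428 other nuclear fragments, not filtered for sequence in common with mitochondrial DNA, had 0.699 (0.685 to 0.714), 0.595 (0.582 to 0.609) and 0.729 (0.714 to 0.744). In each phase the value of the 5S fragments thus lay below that of the other fragments, and the intervals did not overlap. The cause was not tested.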

How the results depend on the processing

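No paired analysis was possible because the replicates of each phase are pooled in 1 table, and leaving out a replicate could not be run for the same reason. The rDNA as the outer 50 kb of each end of chromosome III moved none of the values compared beyond its interval. The 30 gene fragments alone, chosen after seeing the data, moved 3: 5S with the rDNA to 1.97% in G1 and 1.96% in G2 phase, and 5S with other fragments to 41.2% in G2 phase.

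Most values moved when pairs with sequence in common, directly or through a neighbouring fragment, were dropped. The class of 5S with 5S then became empty by construction, since all of its listed pairs have such sequence. Without pairs that have a 50 bp stretch in common, the 5S share of network counts was 0.771% in G1, 0.684% in G2 and 0.782% in M phase, the share of 5S with 5S was 0% in each phase, that of 5S with the rDNA 42.3%, 44.9% and 27.2% of the 5S counts left, and 57, 61 and 23 interactions were significant. Of these 82.5%, 83.6% and 69.6% were interchromosomal in G1, G2 and M phase, 11.1% were significant in all 3 phases, and 21.1%, 27.8% and 5.56% in G1, G2 or M phase alone. With 25 bp stretches the same values were 0.744%, 0.672% and 0.757%, 0% in each phase, 43.2%, 44.2% and 26.9%, 46, 57 and 17 interactions, 78.3%, 82.5% and 64.7%, 13.5%, and 17.6% and 31.1% in G1 or G2 phase alone. For all pairs without sequence in common, the interchromosomal shares and the sharing between phases are not given here. These 5S values therefore cannot be set against the shares of all interactions above, which include repeated sequence.

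The share of network counts was 1.17%, 0.891% and 0.971% without pairs under 10 kb apart, 0.916%, 0.696% and 0.732% without SPRRNA.37, 0.682%, 0.51% and 0.54% without the 8 members with an LTR or tRNA gene, and 1.73%, 1.76% and 2.18% by pairs instead of counts. The share of 5S with 5S was 60.2%, 58.4% and 61.9% without SPRRNA.37, 43.1%, 42.2% and 43.1% without those 8, and 31.1%, 36.6% and 35.9% by pairs. With the cut-off at 2 counts, 69.3% were significant in all 3 phases and 7.99% in G1 phase alone, and at 5 counts 3.77% in G2 phase alone.

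Both settings that follow were chosen after seeing the data. With all 39 fragments of the rule the share of network counts was 3.12%, 3.3% and 2.96%, that of 5S with 5S 18.7%, 13.1% and 16.2%, that of 5S with the rDNA 62.2%, 71.7% and 66.9%, most of it from the fragment next to the rDNA, 69% were significant in all 3 phases, and 7.46% and 9.72% in G1 or G2 phase alone. With the 4 copies not annotated as rRNA, the share of network counts in G1 phase was 1.0% and that of 5S with 5S 72.6%, 70.5% and 71.4%. The interchromosomal difference of G2 minus G1 turned to 1.15 points without pairs with 50 bp in common, 4.2 points with 25 bp and 0.0846 points with all 39 fragments, and that of M minus G2 to 0.133 points at 2 counts. Without pairs with 50 bp in common M minus G1 was -12.9 and M minus G2 -14.0 points, and with 25 bp -13.6 and -17.8 points. None passed Fisher's exact test in any setting (adjusted p from 0.624 to 1.0 where the sign turned, and 0.351 or 0.5 for the larger M phase differences). As above, this test cannot decide whether phases differ, since each phase is 1 pooled table and pairs share fragments. The cause of the changes was not tested. Of the 5S with rDNA pairs 57.9% in G1, 51% in G2 and 61.9% in M phase had a single count.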
